A study of Mus musculus with 3 samples.

Results

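Glutathione conjugation and antioxidant defence were followed in mouse liver cells through 40 genes: 22 glutathione transferases, the enzymes that make and reduce glutathione, the enzymes that remove peroxide and superoxide, the thioredoxin system, and the transcription factor NRF2 (Nfe2l2) with its inhibitor Keap1. They were chosen by gene symbol, and each symbol was found once among the 55357 features of the count matrices. Each of 3 single-cell libraries pooled the liver cells of 2 male wild-type C57BL/6J mice that were 8 weeks old when the experiments began. The control library is CON, and neither its treatment nor when its mice were taken was given in the sources used here. HFD came from mice fed for 4 months a diet with 60% of its energy from fat. CCL4 came from mice kept on chow for 3 months and then injected intraperitoneally 2 times per week for 4 weeks with 0.1 mL of a 10% solution of carbon tetrachloride, a toxin that cytochrome P450 enzymes activate inside hepatocytes. Primary hepatocytes and nonparenchymal cells were mixed 1:1 before loading, so the share of any cell type was set by the mixing and the isolation. With 1 library per condition there was no replicate and no test between conditions. Every interval given is a 95% interval for counting error alone, and differences between mice, isolations and runs cannot be told apart from the conditions.

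Glutathione transferases join the tripeptide glutathione to electrophilic compounds so that the cell can export them, and hepatocytes are among their richest sources. The cytosolic enzymes are grouped into classes named alpha, mu, pi, theta, omega and zeta. The kappa enzyme lies in mitochondria and peroxisomes, while the microsomal enzymes sit in membranes. Glutathione itself is built by glutamate-cysteine ligase and glutathione synthetase and is returned to its reduced form by glutathione reductase. Under electrophilic or oxidative stress NRF2 escapes Keap1 and binds antioxidant response elements in front of many of these genes. The liver lobule is zoned, with hepatocytes near the central vein richer in drug-metabolising enzymes than those near the portal tract.

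The libraries held 11245 (CON), 12984 (HFD) and 12761 (CCL4) barcodes with 34061186 to 49613255 counts of unique molecular identifiers (UMIs, captured RNA molecules), and medians of 2173 to 2939 UMIs per barcode. No barcode sequence occurred in all 3 libraries and 137 occurred in 2. Clustering gave 5008 hepatocyte-like cells in CON, 6537 in HFD and 7061 in CCL4. They fell into 8 clusters, most of them from a single library. Each cluster had 5 to 14 hepatocyte markers raised and no marker of another class among its 10 leading genes, although 6 of the 8 had no hepatocyte marker there either. The largest were cluster 1 (3410 CON cells, led by Mt1, Saa2 and Saa1) and cluster 4 (1508 CON cells, led by Steap4, Il1r1 and Mup17), cluster 24 (5252 HFD cells, led by Fabp5 and Acaa1b, with Gstm1 itself among its 10 leading genes), cluster 36 (591 HFD cells, led by Cyp1a2, Slc1a2 and Glul), cluster 35 (570 HFD cells and 112 CCL4 cells), cluster 32 (2961 CCL4 cells) and cluster 33 (3967 CCL4 cells).

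The following features of these cells touch every result. Clusters 1, 24, 25 and 33 had a median of 0.334% to 0.617% mitochondrial UMIs against 3.82% to 6.15% in clusters 4, 32, 35 and 36, so the counts between libraries and by lobule position are also given for the latter, mitochondria-rich, clusters alone (1513 CON, 1175 HFD and 3082 CCL4 cells). In addition, 15 acute-phase genes summed to 90914 UMIs per 1000000 UMIs of the class (CPM) in CON hepatocyte-like cells against 11120.2 in HFD and 9814 in CCL4, and they did so also in the mitochondria-rich clusters (69346, 12211 and 10265 CPM). Every ratio to CON is thus a ratio to cells with a high acute-phase level, whose part in these ratios was not tested. The comparison of CCL4 with HFD is the one that leaves the control library out. Finally, T cell-like cells, which should lack most hepatocyte transcripts, carried 16 hepatocyte markers at a median of 31.0% of the hepatocyte-like level in CON, 70.3% in HFD and 70.0% in CCL4. Albumin, for example, was at 4310.3, 18934 and 37979.6 CPM in T cell-like cells. Levels in T cell-like cells are therefore given beside the main results as the background of free RNA.

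Summed over the 40 genes, hepatocyte-like cells held 20824 CPM in CON, 28924 CPM in HFD and 20348 CPM in CCL4. The 22 transferases made up 7049, 12714 and 7356 CPM of these sums, so the higher sum in HFD came in the larger part from them. T cell-like cells held sums of 8407, 21213 and 16949 CPM, of which the transferases made up 2602, 9816 and 6489 CPM. These sums too were higher in HFD than in CON, and the part of free RNA in the hepatocyte-like sums was not tested. In the mitochondria-rich clusters the 40 genes summed to 16455, 26596 and 18360.3 CPM, so CCL4 lay above CON there. Of the 40 genes, 37 had a mean of at least 10 CPM over the 3 libraries and were compared. Gstp2 (1.12 to 2.83 CPM), Nqo1 (6.89 to 9.82 CPM) and Mgst2 (0.0972 to 0.181 CPM) were below that mean. In CON and CCL4 the highest levels belonged to Mgst1, the microsomal transferase, Prdx1, a peroxiredoxin, Cat, the peroxisomal catalase, and Gpx1, the major selenium-dependent glutathione peroxidase, which lay between 2383 and 6448 CPM in every library. In HFD, Gstm1 (2563 CPM) stood above Gpx1 (2383 CPM). Since the 3′ method counts molecules, CPM are not divided by length.

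**Figure D1:**
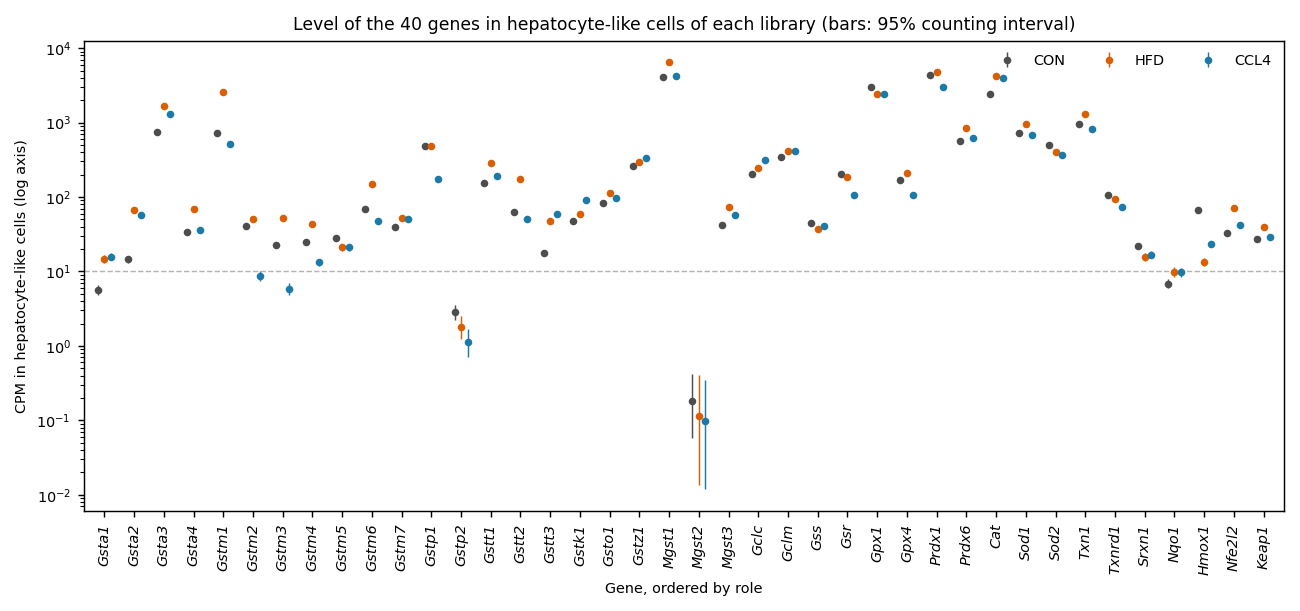
CPM of each of the 40 genes (vertical axis, log scale) in hepatocyte-like cells of CON (grey), HFD (orange) and CCL4 (blue), ordered by role; bars are 95% counting intervals and the dashed line marks 10 CPM. Gstm1 stands at 2563 CPM in HFD against 715 in CON and 515 in CCL4, and Mgst2 lies below 1 CPM in all 3 libraries.

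A gene was counted as past 2-fold where the ratio of CPM was at least 2 or at most 0.5. From CON to HFD, 9 of the 37 genes were past 2-fold higher and 1 was lower, against 5.13% and 5.42% of all 6399 genes that passed the same filter. The 9 were 8 transferases and Nfe2l2, and the 1 was Hmox1. From CON to CCL4, 3 genes were higher and 4 lower, against 6.56% and 6.17% of all genes. From HFD to CCL4, none was higher and 7 were lower, all of them transferases, against 3.47% and 3.88% of all genes. The median ratio of the 37 genes was 1.37 for HFD over CON, 0.937 for CCL4 over CON and 0.763 for CCL4 over HFD, beside 1.02, 0.997 and 0.988 over all genes. With the T cell-like level taken off in each library, 2 genes were higher and 9 lower in HFD over CON, 0 and 22 in CCL4 over CON, and 1 and 14 in CCL4 over HFD. The ratio then crossed 1 for 21 of the 34 genes that lay above the T cell-like level in both HFD and CON, for 11 of 30 in CCL4 over CON and for 4 of 30 in CCL4 over HFD. The same counts over all genes after this subtraction are not given here, so nothing particular to the 37 genes is read from them. The directions given below are those of the levels as measured. The first and second of these comparisons share the control library and the first and last share HFD. In the mitochondria-rich clusters, 37 genes also passed the filter, with Nqo1 in and Gsta1 out. There 11 were higher and 1 lower in HFD over CON (6.61% and 4.55% of all 6703 genes), 4 higher and 3 lower in CCL4 over CON (6.33% and 6.39%), and 0 higher and 6 lower in CCL4 over HFD (2.37% and 4.12%). The median ratios of these 37 genes were 1.56, 1.17 and 0.767 in that order, beside 1.09, 1.03 and 0.963 over all genes. For CCL4 over CON the median thus lay above 1 there and below 1 in all hepatocyte-like cells.

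**Figure D2:**
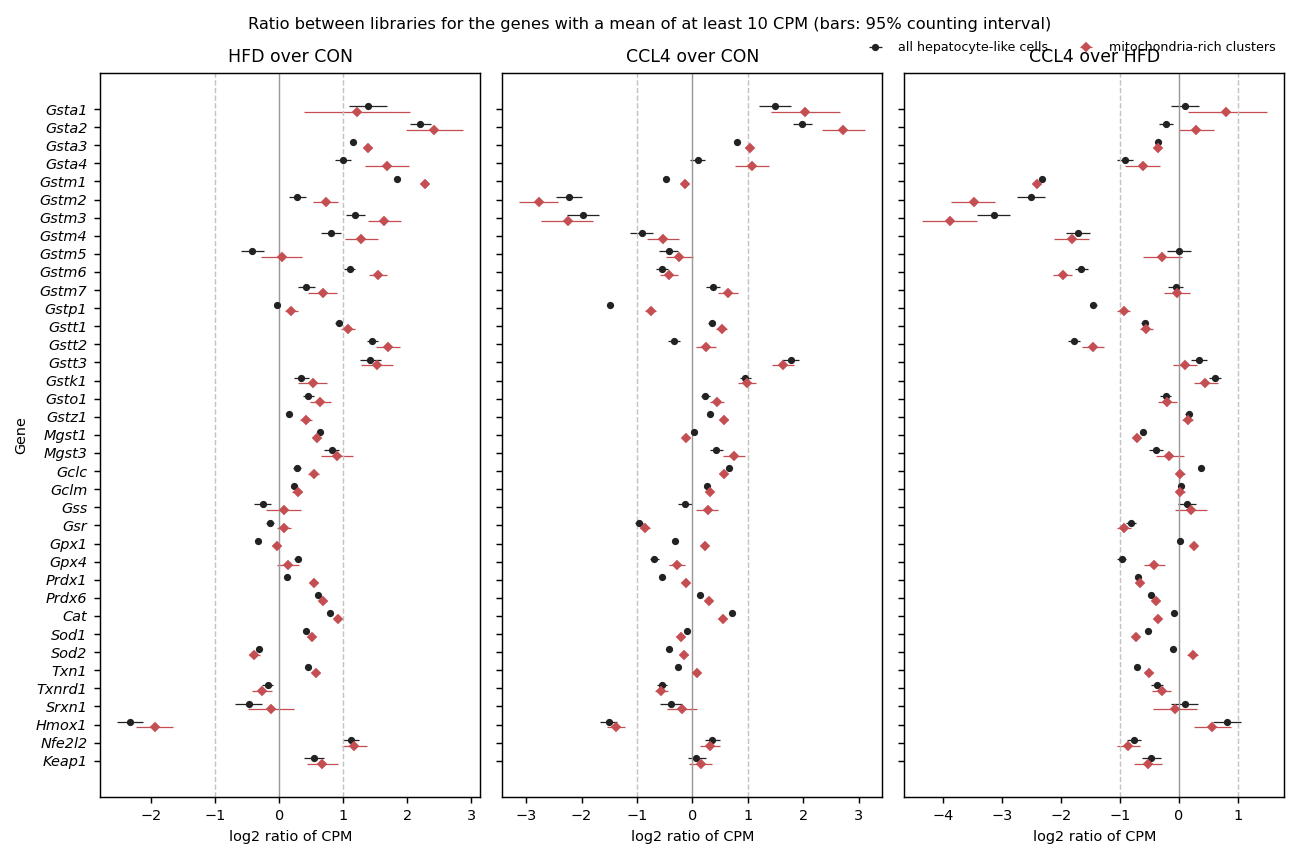
log2 ratio of CPM between libraries for the 37 genes with a mean of at least 10 CPM, in all hepatocyte-like cells (black circles) and in the mitochondria-rich clusters (red diamonds); bars are 95% counting intervals and dashed lines mark 2-fold. In CCL4 over HFD, Gstm1, Gstm2, Gstm3, Gstm4 and Gstm6 lie beyond the lower 2-fold line in both sets of cells, while Gstm5 and Gstm7 lie near 0.

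The mu class supplied 5 of the 7 genes that were lower in CCL4 than in HFD. Its 7 genes lie in 1 cluster on chromosome 3, between positions 107895821 and 108044894 of the mouse genome build GRCm38, in the order Gstm5, Gstm7, Gstm6, Gstm3, Gstm2, Gstm1 and Gstm4. Together they held 940.0 CPM in CON hepatocyte-like cells, 2931 CPM in HFD and 662 CPM in CCL4. Gstm1, the main mu-class enzyme of mouse liver, supplied 76.0%, 87.5% and 77.8% of these UMIs.

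Gstm1 was at 715 CPM in CON (interval 705 to 725), 2563 CPM in HFD (2539.7 to 2587) and 515 CPM in CCL4 (506 to 525). HFD stood far above the other libraries and CCL4 was the lowest, with a ratio of HFD over CON of 3.59 (3.53 to 3.65), of CCL4 over CON of 0.721 (0.704 to 0.738) and of CCL4 over HFD of 0.201 (0.197 to 0.205). In the mitochondria-rich clusters, the same ratios were 4.83, 0.913 and 0.189. Gstm6 had the same order, with 69.2 CPM in CON, 149 in HFD and 47.3 in CCL4. Its ratio of HFD over CON was 2.15 (2.02 to 2.28) and that of CCL4 over HFD was 0.318 (0.295 to 0.342).

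Gstm2 was at 41.1 CPM in CON, 49.9 CPM in HFD and 8.75 CPM in CCL4 (7.52 to 10.1, from 180 UMIs). Here CON and HFD lay close together and CCL4 far below them, with a ratio of CCL4 over CON of 0.213 (0.181 to 0.250) and of HFD over CON of 1.21 (1.11 to 1.33). Gstm3 was at 22.9, 52.1 and 5.88 CPM, the last from 121 UMIs. It was past 2-fold in all 3 comparisons, at 2.27 (2.05 to 2.52) for HFD over CON, 0.256 (0.209 to 0.312) for CCL4 over CON and 0.113 (0.0927 to 0.137) for CCL4 over HFD, the lowest ratio of the 37 genes in that comparison. Gstm4, at 24.8, 43.2 and 13.2 CPM, was past 2-fold only in CCL4 over HFD (0.305, interval 0.264 to 0.351). Its ratio of CCL4 over CON was 0.531.

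The other members of the cluster differed little as measured. Gstm5 was at 28.1 CPM in CON and 21.0 CPM in HFD and CCL4, and Gstm7 at 39.3, 52.9 and 50.9 CPM. Their ratios of CCL4 over HFD were 0.998 (0.867 to 1.15) and 0.963 (0.880 to 1.05). Reads may be hard to assign to a single gene for Gstm1. Of its 60-base runs in the last 500 bases of annotated transcripts, 19.9% also occur in another gene, among them Gstm3. The share was lower for Gstm6 (9.76%) and Gstm2 (7.29%), while Gstm3, Gstm4, Gstm5 and Gstm7 shared none.

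The same contrast stood in the free RNA. In T cell-like cells, the ratio of CCL4 over HFD was 0.216 for Gstm1, 0.227 for Gstm2, 0.129 for Gstm3, 0.267 for Gstm4 and 0.316 for Gstm6, but 1.02 for Gstm5 and 0.999 for Gstm7. Against CON the T cell-like cells differed from hepatocyte-like cells, as their ratio of HFD over CON was 6.98 for Gstm1 and 1.87 for Gstm2.

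The sequence before the transcription start is shown for 4 of the genes. Mu-class neighbours that differed between libraries are set beside Gstm5, which stayed within 2-fold as measured, and beside Gsta3, the most abundant alpha-class gene. Capitals mark matches to TGACNNNGC, a core of the antioxidant response element, searched on both strands. The windows are the 250 bases before the start in RefSeq for build GRCm38.p6, 5′ to 3′ on the strand of the gene. Gsta3 (chr1:21240335-21240584, + strand) and Gstm5 (chr3:107895604-107895853, + strand) hold a match that begins 121 and 42 bases before the start, while Gstm1 (chr3:108017974-108018223, - strand) and Gstm3 (chr3:107969175-107969424, - strand) hold none.
Gsta3: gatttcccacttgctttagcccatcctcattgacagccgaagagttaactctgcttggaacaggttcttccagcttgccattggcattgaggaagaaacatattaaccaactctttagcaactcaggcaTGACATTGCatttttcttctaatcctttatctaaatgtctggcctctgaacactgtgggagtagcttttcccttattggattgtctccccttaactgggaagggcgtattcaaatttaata
Gstm5: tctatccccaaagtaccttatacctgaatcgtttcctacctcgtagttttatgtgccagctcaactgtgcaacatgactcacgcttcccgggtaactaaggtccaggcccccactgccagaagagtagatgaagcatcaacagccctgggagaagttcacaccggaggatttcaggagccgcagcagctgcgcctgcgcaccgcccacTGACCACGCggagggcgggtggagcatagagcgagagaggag
Gstm1: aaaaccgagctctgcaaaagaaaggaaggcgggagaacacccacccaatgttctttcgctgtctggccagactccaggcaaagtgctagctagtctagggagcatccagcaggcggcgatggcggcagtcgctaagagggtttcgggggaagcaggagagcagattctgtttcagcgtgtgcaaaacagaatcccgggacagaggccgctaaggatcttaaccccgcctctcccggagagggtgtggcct
Gstm3: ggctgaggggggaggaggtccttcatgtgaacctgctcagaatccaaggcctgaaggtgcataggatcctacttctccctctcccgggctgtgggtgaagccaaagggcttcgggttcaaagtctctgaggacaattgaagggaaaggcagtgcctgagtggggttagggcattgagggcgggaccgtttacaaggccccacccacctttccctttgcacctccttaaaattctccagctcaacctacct

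In the full 300-base windows, which run to 50 bases after the start, 34 of the 40 genes had an entry and 10 of the 34 (29.4%) held the motif, beside 14.0% of all 27025 symbols. By window, 10 of the 47 windows of these genes (21.3%) held it, beside 12.4% of all 32851 windows. The 10 were Gsta3, Gstm5, Gstm7, Mgst1, Gclm, Prdx1, Sod1, Txnrd1, Srxn1 and Nfe2l2. Among the 7 mu-class genes, Gstm5 and Gstm7 held it. These are the mu-class genes whose level as measured in hepatocyte-like cells was within 2-fold in all 3 comparisons. With the T cell-like level taken off, this no longer held for Gstm5 (0.156 and 0.141 over CON). Gstm7, however, also has a window without the motif. Gsta3 and Nfe2l2, which hold the motif, were past 2-fold higher in HFD over CON. Whether motif and level go together was not tested. Targets of NRF2 were among the kinds of gene chosen, so the shares above those of all symbols and windows are not read as a result. A match is a run of letters and not a measured binding site, and elements farther upstream lie outside the window.

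Of the 4 alpha-class genes, 3 were past 2-fold higher in HFD over CON and 2 in CCL4 over CON, beside 5.13% and 6.56% of all genes. Gsta3 was at 747 CPM in CON (737 to 757), 1657 in HFD (1638 to 1676) and 1299.6 in CCL4 (1284 to 1315), with ratios to CON of 2.22 (2.18 to 2.26) and 1.74 (1.71 to 1.77). Gsta2 was at 14.5 CPM in CON, 66.8 in HFD and 57.3 in CCL4. Its ratios to CON, 4.61 (4.11 to 5.18) and 3.95 (3.52 to 4.44), were the highest of the 37 genes in both comparisons, and in the mitochondria-rich clusters they were 5.36 and 6.59. In those clusters, however, the Gsta2 level was 0.831 (0.528 to 1.34), 0.565 and 0.612 times the T cell-like one in CON, HFD and CCL4. The part of free RNA in these ratios was not tested. Gsta1 was at 5.65, 14.8 and 15.8 CPM, with ratios to CON of 2.61 and 2.80. Gsta4, which acts on products of lipid peroxidation such as 4-hydroxynonenal, was at 34.3, 68.5 and 36.5 CPM, just short of 2-fold in HFD over CON (interval 1.83 to 2.18) in all hepatocyte-like cells and at 3.21 (2.53 to 4.07) in the mitochondria-rich clusters. The Gsta4 level there was 0.806 (0.590 to 1.11), 0.663 and 0.502 times the T cell-like one in CON, HFD and CCL4. In the annotated transcripts, 87.5% of the 60-base runs in the last 500 bases of Gsta1 and 53.3% of those of Gsta2 also occur in another gene. These are mainly each other and predicted genes nearby, so the UMIs counted for Gsta1 and for Gsta2 are uncertain. T cell-like cells had higher ratios of HFD over CON than these, at 4.16 for Gsta3 and 7.87 for Gsta2.

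Gstp1, the pi-class enzyme, was at 488 CPM in CON, 477 in HFD and 174 in CCL4. CON and HFD lay within a ratio of 0.977 (0.951 to 1.00), while CCL4 was at 0.357 (0.344 to 0.370) of CON and 0.365 (0.351 to 0.380) of HFD. T cell-like cells held it at 152, 277 and 149 CPM. In the mitochondria-rich clusters these became 0.592 (0.555 to 0.631) and 0.522 (0.481 to 0.565) and were not past 2-fold. The level was 204, 231 and 120.5 CPM there against 760.0, 564 and 247 CPM in the mitochondria-poor clusters. Of the end runs of Gstp1, 75.9% are shared with Gstp2 or a pseudogene, and Gstp2 itself held 23 to 78 UMIs.

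Among the theta-class genes, Gstt2 was at 63.5, 174 and 50.5 CPM, past 2-fold higher in HFD over CON (2.74, interval 2.58 to 2.91) and lower in CCL4 over HFD (0.290, interval 0.270 to 0.312). T cell-like cells held Gstt2 at 38.2, 156 and 46.8 CPM. Gstt3 was at 17.5, 47.1 and 59.8 CPM, with ratios to CON of 2.68 (2.40 to 3.01) and 3.41 (3.07 to 3.80). T cell-like cells held Gstt3 at 6.94, 33.8 and 44.2 CPM, and with that level taken off its ratios to CON were 1.26 and 1.48. Of the end runs of Gstt3, 25.9% also occur in Gm20441. As measured in all hepatocyte-like cells, Gstt2 thus had the order of Gstm1, with HFD highest and CCL4 lowest. Gstt3 was higher than CON in both other libraries. In the mitochondria-rich clusters Gstt2 was at 32.5, 106 and 38.5 CPM, so CCL4 lay above CON there. The Gstt2 level there was 0.851 (0.713 to 1.02), 0.676 and 0.822 times the T cell-like one in CON, HFD and CCL4. Gstt1 was at 152, 287 and 193 CPM (HFD over CON 1.90, and 2.11 in the mitochondria-rich clusters). Gstk1, a mitochondrial and peroxisomal enzyme, was at 47.2, 59.8 and 91.7 CPM, Gsto1 at 82.3, 113 and 96.7 CPM, and Gstz1, which also takes part in tyrosine breakdown, at 265, 294 and 331 CPM. The ratios of these genes stayed within 2-fold.

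Mgst1 was at 4148 CPM in CON, 6448 in HFD and 4229.7 in CCL4, with a ratio of HFD over CON of 1.55 (1.54 to 1.57) and of CCL4 over CON of 1.02 (1.01 to 1.03). Mgst3 was at 42.1, 74.0 and 56.5 CPM. Mgst2, which can also make leukotriene C4, was nearly missing from hepatocyte-like cells, with 5, 2 and 2 UMIs, although T cell-like cells of the same libraries held 12.6 to 19.1 CPM.

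No gene of glutathione synthesis and reduction was past 2-fold in any comparison, beside 3.47% to 6.56% of all genes in each direction. With only 4 such genes, nothing is read from this. Gclc, the catalytic subunit of glutamate-cysteine ligase, was at 201 CPM in CON, 243 in HFD and 316 in CCL4, and its ratio of CCL4 over CON was 1.57 (1.52 to 1.63). Gclm, the modifier subunit, was at 349, 409 and 419.5 CPM, and Gss, glutathione synthetase, at 44.3, 36.9 and 40.4 CPM. Gsr, glutathione reductase, was at 206, 186 and 106 CPM. With ratios of 0.515 (0.490 to 0.541) to CON and 0.570 (0.540 to 0.602) to HFD, CCL4 stood lowest for Gsr but short of 2-fold.

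No gene of peroxide and superoxide removal was past 2-fold in any comparison, beside 3.47% to 6.56% of all genes in each direction. With only 7 such genes, nothing is read from this either. Cat was at 2417, 4183 and 3955 CPM, with ratios to CON of 1.73 (1.71 to 1.75) and 1.64 (1.62 to 1.65). Prdx1 was at 4374, 4775 and 2968 CPM and Prdx6 at 561, 851 and 616 CPM. Gpx1 was at 3001, 2383 and 2415 CPM, and Gpx4, which reduces lipid hydroperoxides in membranes, at 170.3, 208 and 106 CPM. The ratio of CCL4 over HFD of Gpx4 was 0.510 (0.483 to 0.538), and 0.750 in the mitochondria-rich clusters. In those clusters the Gpx4 level was only 0.493 and 0.469 times the T cell-like one in HFD and CCL4. Of its end runs, 87.7% also occur in pseudogenes. Sod1, the cytosolic superoxide dismutase, was at 724, 970.0 and 678 CPM and Sod2, the mitochondrial one, at 497, 397 and 369 CPM. Cat and Sod2 therefore lay on different sides of CON in both other libraries.

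Hmox1, the inducible haem oxygenase, was lower than CON in both other libraries. It was at 67.3 CPM in CON (64.3 to 70.4), 13.4 in HFD (11.7 to 15.2) and 23.6 in CCL4 (21.5 to 25.8), with ratios to CON of 0.199 (0.173 to 0.228) and 0.350 (0.316 to 0.388). In the mitochondria-rich clusters the ratios were 0.261 (0.212 to 0.317) and 0.384 (0.343 to 0.430). T cell-like cells, at 23.4, 6.71 and 7.48 CPM, were lower too. The acute-phase genes that set CON apart also summed to less in HFD and CCL4 than in CON. Between HFD and CCL4, however, their sum was lower in CCL4 (11120.2 and 9814 CPM), while Hmox1 was higher. Their part in the Hmox1 difference was not tested. The other genes of the thioredoxin and inducible group stayed within 2-fold: Txn1, thioredoxin, was at 967, 1323 and 807 CPM, Txnrd1, its reductase, at 108, 94.9 and 73.7 CPM, and Srxn1, sulfiredoxin, at 22.1, 15.8 and 16.9 CPM. Nqo1, a classical NRF2 target, was at 6.89, 9.82 and 9.82 CPM.

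Nfe2l2 was at 33.2 CPM in CON, 72.2 in HFD and 42.6 in CCL4, with a ratio of HFD over CON of 2.17 (1.99 to 2.37) and of 2.25 (1.97 to 2.58) in the mitochondria-rich clusters. T cell-like cells held it at 56.4, 66.9 and 44.9 CPM, which in CON was above the hepatocyte-like level. Keap1 was at 27.5, 40.0 and 29.0 CPM. Among 8 other regulators of NRF2, Bach1, a repressor at the same elements, was at 154 CPM in CON, 43.2 in HFD and 26.6 in CCL4, ratios of 0.280 (0.259 to 0.303) and 0.173 (0.158 to 0.189). Maff was the next lowest (0.532 and 0.334), and Mafg, another partner of NRF2 at its elements, was at 1.89 (1.69 to 2.12) in HFD and 2.27 (2.04 to 2.52) in CCL4 over CON. In HFD over CON 1 of the 8 was past 2-fold lower, beside 5.42% of all genes. In CCL4 over CON 1 was higher and 2 were lower, beside 6.56% and 6.17% of all genes. Nothing is read from counts this small.

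Of 22 other genes listed as responsive to NRF2, 17 passed the filter. In HFD over CON, 5 were past 2-fold higher and none lower, led by Me1, the malic enzyme that supplies NADPH (99.1 against 350.0 CPM, ratio 3.53), and Abcc3, an exporter of conjugates (2.98), with Sqstm1 (0.565) and Osgin1 (0.663) the lowest. Over all genes 5.13% were higher and 5.42% lower in that comparison. In CCL4 over CON, 2 were higher, Abcc2 (2.60) and Ephx1 (2.13), and 1 was lower, Osgin1 (0.310), beside 6.56% and 6.17% of all genes. In CCL4 over HFD, none was higher and 3 were lower, with Blvrb at 0.315 and Me1 at 0.341, beside 3.47% and 3.88% of all genes. The median ratio of the 17 genes was 1.55, 1.09 and 0.624 in the 3 comparisons, beside 1.02, 0.997 and 0.988 over all genes.

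Of 18 genes of cysteine supply and glutathione turnover, 17 were compared. Csad, which draws cysteine towards taurine, was at 75.0 CPM in CON, 183 in HFD and 25.3 in CCL4, so its ratio of CCL4 over HFD was 0.139 (0.126 to 0.152). Cth, which makes cysteine from cystathionine, was at 375, 444 and 898 CPM and was past 2-fold higher in CCL4 over CON (2.39) and over HFD (2.02). Mat1a (2.46 over CON) and Cbs (2.05 over HFD), which act before it, were also higher in CCL4. In all, 2 of the 17 were higher and none lower in HFD over CON, 2 higher and 1 lower in CCL4 over CON, and 2 higher and 1 lower in CCL4 over HFD. Counts of 1 or 2 of 17 genes lie near the shares of all genes past 2-fold (3.47% to 6.56%), and nothing is read from them. Of 13 other peroxidases, thioredoxins, glutaredoxins and dismutases, 1 was past 2-fold in each comparison, always higher, beside 3.47% to 6.56% of all genes. It was Txnip, the thioredoxin-interacting protein, in HFD over CON (2.58) and CCL4 over CON (2.59). In CCL4 over HFD it was Selenop, the plasma selenoprotein (2.16). Of 9 other transferase-related genes in the files, Gstp3 and Clic4 passed the filter, and neither was past 2-fold.

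Hepatocyte-like and T cell-like cells were then compared within each library. No gene of the 37 was past 2-fold in the same direction in all 3 libraries, beside 0.566% (higher in hepatocyte-like cells) and 11.0% (lower) of all 6888 genes compared. In CON, 29 of 37 were past 2-fold higher in hepatocyte-like cells (22.3% of all genes), in HFD none was (1.02%), and in CCL4 Hmox1 alone was (5.36%). In the mitochondria-rich clusters, 16 of 36 were higher in CON, 4 in HFD (Gstm2, Gclc, Cat and Hmox1) and 1 in CCL4. Gpx4 was past 2-fold lower there in HFD and CCL4. Shares over all genes are not given for these clusters, so nothing is read from their counts. The median level in T cell-like cells was 39.7% of the hepatocyte-like level over the 37 genes in CON, 72.5% in HFD and 86.4% in CCL4, where the hepatocyte markers had medians of 31.0%, 70.3% and 70.0%. Mgst1, for example, was at 1489, 5104 and 3798 CPM in T cell-like cells. The part of free RNA in each difference between libraries was not tested, beyond taking off the T cell-like level, which also holds what T cells make themselves. With that level taken off in both libraries, HFD over CON was 1.34 for Gstm1 and 2.26 for Gsta2, but crossed 1 for 21 genes, among them Mgst1 (0.506), Gstt1 (0.675), Gstt2 (0.693), Cat (0.846) and Gsta3 (0.894). CCL4 over CON crossed 1 for 11 genes, among them Gsta3 (0.329). CCL4 over HFD was below 0.5 for Gstm1 (0.150), Gstm6 (0.323) and Gstp1 (0.127), whose hepatocyte-like level lay above the T cell-like one in both libraries beyond counting error. The same held for Prdx1 (0.227), Mgst1 (0.321), Gstt1 (0.321) and Gsta3 (0.369), which were not past 2-fold as measured. In the mitochondria-rich clusters of CCL4, however, Gstp1 was at 0.809 (0.736 to 0.891) times the T cell-like level. Prdx1 (0.871), Mgst1 (0.966) and Gsta3 (0.840) lay below that level there too. Gstt1 (0.944, interval 0.866 to 1.03) and Gstm1 (1.03, interval 0.976 to 1.09) could not be told apart from it, while Gstm6 was at 1.39 (1.15 to 1.69). In all hepatocyte-like cells, the level left could not be told apart from 0 for some other genes. In CCL4, hepatocyte-like over T cell-like cells was 1.07 (0.736 to 1.59) for Gstm2 and 1.22 (0.755 to 2.07) for Gstm3. There it was 1.08 (0.925 to 1.26) for Gstt2 and 1.05 (0.914 to 1.22) for Gsta2. In HFD it was 1.06 (0.906 to 1.25) for Gstm4, with an interval of 0.968 to 1.78 for Gsta1.

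**Figure D3:**
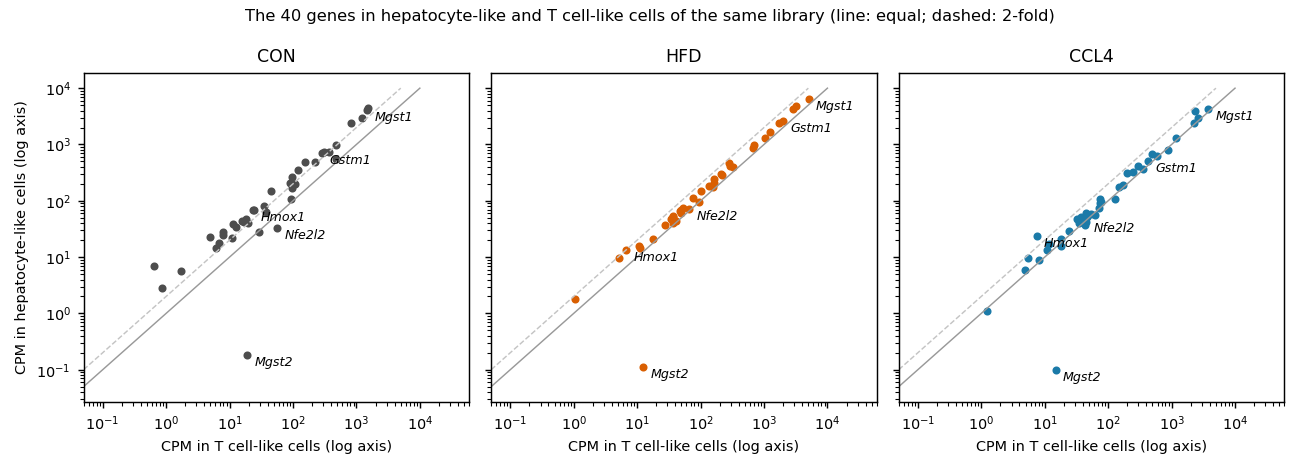
CPM of the 40 genes in hepatocyte-like cells (vertical, log scale) against T cell-like cells (horizontal, log scale) of the same library; the solid line marks equal levels and the dashed line 2-fold. Most points lie beyond the 2-fold line in CON (29 of 37 genes) and between the lines in HFD and CCL4, and Mgst2 lies far below the line of equal levels in each.

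Position in the lobule was read from landmark genes with no member among them. Within each library, hepatocyte-like cells were ordered by pericentral minus periportal landmarks. The cells with the highest scores (1669 in CON, 2179 in HFD and 2353 in CCL4) were called pericentral and as many with the lowest scores periportal, which left about as many in between. The order is relative to the library: Glul, the most central landmark, was at 526 CPM in the pericentral cells of CON, 778 CPM in HFD and 105 CPM in CCL4, and Cyp2e1 at 1928, 3616 and 695 CPM. The periportal cells also held more mitochondrial UMIs in CON (median 1.62% against 0.636%) and CCL4 (3.68% against 0.796%), and 453 to 770 cells lay within 0.1 standard deviation of each boundary.

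Gstm1, Gstm2, Gstm3 and Gstm6 were past 1.5-fold higher in the pericentral cells in every library, 4 of 36 genes compared, beside 0.941% of all 6480 genes, a share that includes the landmarks. None was past 1.5-fold higher in the periportal cells in every library, beside 1.33% of all genes. In the mitochondria-rich clusters alone, these 4 were joined by Gsta3 and Nqo1, 6 of 37 genes beside 1.96% of all genes, and again none was periportal, beside 0.941%.

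Gstm2 had the steepest difference of the 4. It was at 104 CPM pericentrally and 10.2 CPM periportally in CON, 88.7 and 23.2 CPM in HFD, and 20.5 and 2.70 CPM in CCL4, ratios of 10.2 (8.42 to 12.4), 3.82 (3.18 to 4.60) and 7.58 (4.79 to 12.5). In the mitochondria-rich clusters the ratios were 17.1, 11.3 and 9.69. Gstm3 had ratios of 3.29, 2.42 and 5.28. Gstm1 was at 1039.6 and 442 CPM in CON, 3222 and 1929 CPM in HFD, and 746 and 365 CPM in CCL4, and Gstm6 had ratios of 2.36, 1.94 and 1.67. The ratios of Gstm5 lay between 0.982 and 1.13 and those of Gstm7 between 0.943 and 1.25, although Gstm7 reached 1.49 in the mitochondria-rich clusters of HFD. In Gstm2, the pericentral cells of CCL4 (20.5 CPM) were near the periportal cells of HFD (23.2 CPM). However, T cell-like cells held Gstm2 at 19.3 CPM in CON, 36.1 in HFD and 8.20 in CCL4. The periportal level lay below the T cell-like one in each library, and the part of free RNA in it was not tested.

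Differences between libraries were also seen at both ends of the order. Since the order is relative to each library, position in the lobule was not held equal between libraries in these ratios. In the pericentral cells, CCL4 over HFD was 0.232 (0.224 to 0.239) for Gstm1, 0.231 (0.188 to 0.282) for Gstm2, 0.162 (0.125 to 0.207) for Gstm3 and 0.317 (0.282 to 0.356) for Gstm6. In the periportal cells it was 0.189, 0.116, 0.0741 and 0.368. HFD over CON was more uneven. For Gsta3 it was 1.47 (1.43 to 1.51) pericentrally and 3.68 (3.55 to 3.81) periportally, with periportal levels of 376 CPM in CON and 1381 CPM in HFD. For Gstm2 it was 0.854 (0.763 to 0.954) and 2.27 (1.78 to 2.90). T cell-like cells held Gsta3 at 303 CPM in CON and 1260.1 CPM in HFD, near these periportal levels. They held Gstm2 at 19.3 and 36.1 CPM, above its periportal levels. The part of free RNA in these periportal ratios was not tested. Within HFD, clusters also differed. In cluster 36, led by pericentral genes, Gstm1 was at 3470.1 CPM, Gstm2 at 137 CPM and Gstm3 at 103 CPM, against 1341, 15.7 and 17.4 CPM in cluster 35.

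**Figure D4:**
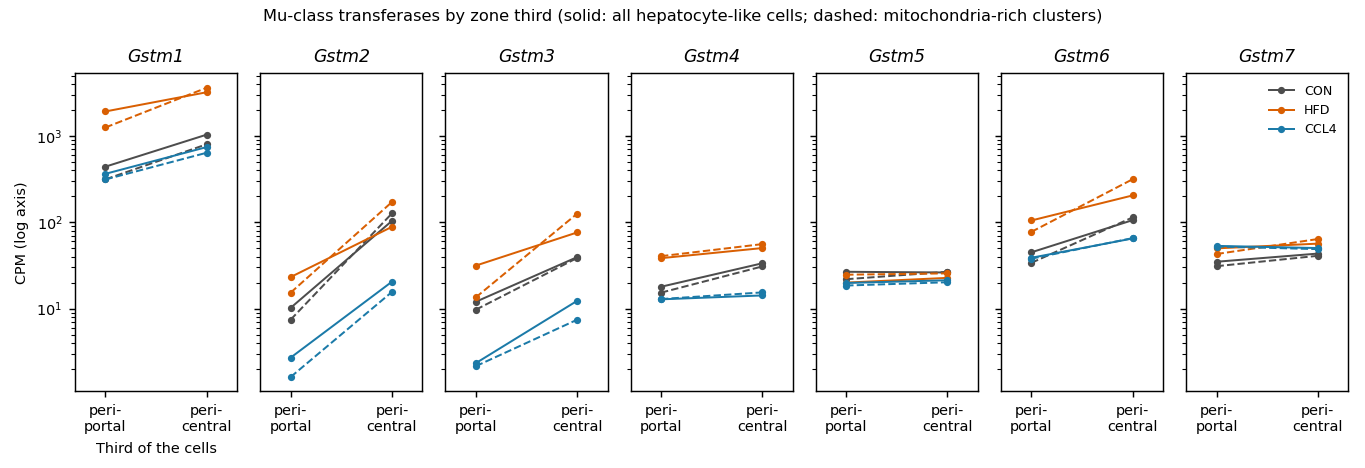
CPM (log axis) of the 7 mu-class genes in the periportal and pericentral cells of CON (grey), HFD (orange) and CCL4 (blue), in all hepatocyte-like cells (solid) and in the mitochondria-rich clusters (dashed). Gstm1, Gstm2, Gstm3 and Gstm6 rise towards the pericentral cells in every line, with CCL4 lowest for Gstm2 and Gstm3, while the lines of Gstm5 and Gstm7 are flatter, with ratios of at most 1.25 in all hepatocyte-like cells.

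Cells were named into 17 classes, of which 17 in CON, 16 in HFD and 13 in CCL4 had the 20 cells needed to be compared. Among the 40 genes, 16 had their highest level outside hepatocyte-like cells in all 3 libraries. The share of all genes for which this holds is not given here, so the count is not read as particular to these genes. Some highest levels rest on few UMIs, such as 1 UMI for Gstm2 in Kupffer cell-like cells of CCL4 and 3 for Gsta1 in basophil-like cells of HFD. For 3 of the 16 genes the class was the same each time. Hmox1 was highest in Kupffer cell-like cells, the resident macrophages that take up aged red cells, at 785 CPM in CON, 291 in HFD and 186 in CCL4. Those values rest on 71, 73 and 21 cells and on 282, 57 and 11 UMIs, and were 11.7, 21.7 and 7.89 times the hepatocyte-like level. Gsr was highest in neutrophil-like cells at 779, 638 and 549.7 CPM, 3.79 (3.57 to 4.01), 3.43 (3.12 to 3.76) and 5.19 (4.20 to 6.35) times the hepatocyte-like level, with monocyte-like cells next at 761, 529.8 and 456 CPM. Txn1 was highest there too, at 1732, 1668 and 1555 CPM.

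The other 13 genes changed class between libraries. Nfe2l2 was highest in Kupffer cell-like cells of CON (362 CPM) and in monocyte-like cells of HFD (286 CPM) and CCL4 (185 CPM). These were 10.9 (8.99 to 13.1), 3.96 (3.65 to 4.29) and 4.33 (3.53 to 5.28) times the hepatocyte-like level, and the monocyte-like level in CON was 314 CPM. Mgst2 was highest in myeloid progenitor-like cells of CON (67.8 CPM, 190 UMIs) and HFD (80.6 CPM, 25 UMIs) and in plasma cell-like cells of CCL4 (44.6 CPM, 11 UMIs), where fewer than 20 progenitor-like cells were found. Gstm5 stood in cholangiocyte-like cells at 92.1, 80.0 and 96.6 CPM, against 28.1, 21.0 and 21.0 CPM in hepatocyte-like cells, and in erythroid cell-like cells of CON at 96.6 CPM. Mgst3 was highest in smooth muscle cell-like cells of CON (194 CPM, 53 cells) and in cholangiocyte-like cells of HFD (94.7 CPM) and CCL4 (99.5 CPM), and Nqo1 in smooth muscle cell-like cells of CON and in endothelial cell-like cells of HFD (21.1 CPM) and CCL4 (20.1 CPM). For Mgst3 (1.28, interval 0.966 to 1.66, in HFD), Gsta1, Gstm2, Gsto1, Gpx4, Prdx6, Txnrd1, Srxn1 and Keap1, the interval for the ratio of the highest class to hepatocyte-like cells included 1 in at least 1 library. In contrast, 6 genes, Gstm1, Gstz1, Mgst1, Prdx1, Cat and Sod1, were highest in hepatocyte-like cells in every library, as were 21 of the 40 genes in CON, 18 in HFD and 9 in CCL4. These counts too stand without a share over all genes. In CCL4 the next class was close for some of the 6 genes. Mgst1 was at 4229.7 CPM against 4196 in B cell-like cells and Prdx1 at 2968 against 2892 in erythroid cell-like cells. Gstm1 was at 515 against 485 and Cat at 3955 against 3694 in endothelial cell-like cells. Sod1 (678 against 599) and Gstz1 (331 against 294) followed. Whether these differences exceed counting error was not tested.

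**Figure D5:**
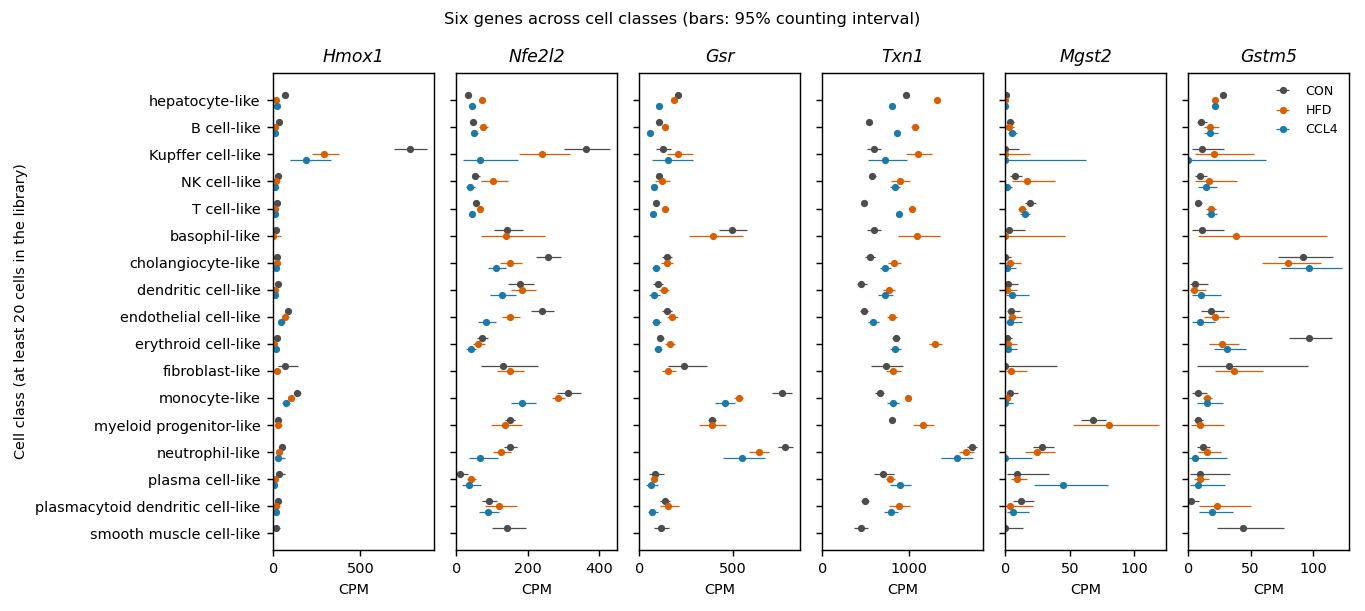
CPM of Hmox1, Nfe2l2, Gsr, Txn1, Mgst2 and Gstm5 (horizontal axes, from 0) in each cell class with at least 20 cells in CON (grey), HFD (orange) and CCL4 (blue); bars are 95% counting intervals. Hmox1 stands out in Kupffer cell-like cells at 785 CPM in CON, Gsr and Txn1 in neutrophil-like cells and Gstm5 in cholangiocyte-like cells at 80.0 to 96.6 CPM.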

How the data were processed

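Liver cells of 2 pooled mice per condition were profiled with the 10x 3′ v3.1 chemistry, giving 1 library each for CON, HFD and CCL4. The deposited matrices hold whole-number UMI counts per gene and barcode, made by the authors with Cell Ranger (7.2.0 per the file headers). The study's methods name the genome build mm10 and the submitters' processing notes list GRCm39, so the build behind the counts is uncertain. How barcodes were chosen as cells was not given in the sources used here. Coordinates are those of GRCm38 and were not taken from the count files.

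A barcode had to hold 500 UMIs from 200 genes, of which no more than 30% could be mitochondrial, and 36946 of 36990 passed. Scrublet marked 1 or 2 barcodes per library and cannot be counted as having worked, which means that doublets remained. The 3 libraries were clustered together in scanpy 1.11.5 (2000 variable genes without the 40 genes, 30 principal components, 15 neighbours, resolution 1.0, 39 clusters). Clusters were named from fixed marker lists by a rule set after the clusters had been seen. UMIs were summed per class and library and given as CPM with exact Poisson 95% intervals, and ratios with exact conditional 95% intervals (scipy 1.17.1). A count of 0 allows up to 3 counts. These intervals cover counting error only, and no p-value was computed. A ratio was counted as past 2-fold among genes with a mean of at least 10 CPM, and the same share over all such genes was given beside it. The ratio and interval code and the clustering were tested on simulated data.

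Full values are given for genes with at least 50 CPM or past 2-fold, and for the other pathway lists the counts with the highest and lowest ratios. The 40 genes and all lists were chosen with earlier results of these data known. Alternatives comprised other filters, scalings, clusterings, depths and subtraction of the T cell-like level. Leaving out the control library was added after seeing the data. Sequences are from RefSeq (GRCm38.p6), in which Gclc, Gsr, Gsta4, Gstt2, Hmox1 and Prdx6 were not found.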

Additional observations from a re-analysis of the deposited data

Results flagged for a closer look

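Of 37 genes, 4 had pericentral over periportal ratios on opposite sides of 1 in a pair of libraries with both counting intervals leaving out 1 and at least 1 of the ratios past 1.5-fold, and none of these differences was tested. Only these 37 genes were looked at by this rule, so the count has no share over all genes and is not read as particular to them. Gsta2 was at 1.79 in CCL4 and 0.688 in CON, against 0.986 and 0.356 in the mitochondria-rich clusters. Gsta4 was at 1.84 in CCL4 and 0.748 in CON, against 1.20 and 0.687 in the mitochondria-rich clusters. Gstp1 was at 1.51 in CCL4 and 0.677 in HFD, against 1.12 and 0.824 in the mitochondria-rich clusters. Hmox1 was at 3.04 in CON and 0.684 in CCL4, whereas in the mitochondria-rich clusters it was above 1 in both (4.39 and 1.25).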

How the results depend on the processing

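With 1 library of pooled mice per condition, no value here has a replicate. Free RNA, the mitochondria-poor clusters and the acute-phase level of CON also limit the comparisons. No paired analysis was possible because each group had 1 library. With the T cell-like level taken off, the genes past 2-fold became 2 higher and 9 lower in HFD over CON, 0 and 22 in CCL4 over CON, and 1 and 14 in CCL4 over HFD, and ratios crossed 1 for 21 of 34, 11 of 30 and 4 of 30 genes above that level in both libraries. Among those past 2-fold before, they were Gsta1 (0.874), Gsta3 (0.894), Gstm3 (0.821) and Gstt2 (0.693) in HFD over CON and Gsta2 (0.353) in CCL4 over CON, where the Gsta1 level left in HFD and the Gsta2 level left in CCL4 could not be told apart from 0. Shares of all genes are not given for the counts under these alternatives. With a mean of at least 50 CPM, the counts were 4 and 0 in HFD over CON, 0 and 1 in CCL4 over CON, 4 lower in CCL4 over HFD, and 2 pericentral. With at least 1 CPM, 1 gene, Mgst2, was lower in hepatocyte-like than in T cell-like cells in every library. At resolution 0.5, and with the lists kept among the variable genes, 15 genes were higher in HFD over CON and 7 in CCL4 over CON, where the mitochondria-poor CON cluster was not named hepatocyte-like. At resolution 2.0, 5 were higher in CCL4 over CON. With each library clustered on its own, 1 was higher in CCL4 over HFD. In hepatocyte-like over T cell-like cells, 1 gene passed in every library with libraries clustered on their own, with scaling outside mitochondrial and abundant genes, without the highest Scrublet scores and in the mitochondria-rich clusters alone. For the single genes printed, 760 of 1165 values under the alternatives stayed within the counting interval of the reported ratio, and 69 crossed 1, 30 of them with the T cell-like level taken off. Those past 2-fold before were the 5 named above. The cause was not tested.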

Other observations

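Immediate-early and heat-shock genes, which respond to handling of cells, also differed between the libraries. Their 13 genes summed to 3247 CPM in CON hepatocyte-like cells, 1722 CPM in HFD and 2688 CPM in CCL4, and to 5154, 2954 and 3611 CPM in the mitochondria-rich clusters. Of the 11 compared, 2 were past 2-fold lower in HFD over CON, Egr1 (0.339) and Atf3 (0.345), beside 5.42% of all genes. None passed in CCL4 over CON, beside 6.56% higher and 6.17% lower of all genes. In CCL4 over HFD 2 were higher, Fos (3.12) and Atf3 (2.61), beside 3.47% of all genes. Among the acute-phase genes, the metallothioneins Mt1 and Mt2, which bind zinc and scavenge radicals, were at 15354 and 4142 CPM in CON, 178 and 27.9 CPM in HFD, and 421 and 88.9 CPM in CCL4. Both were thus lowest in HFD, as Hmox1 was. In CCL4 over HFD, 3 of the 15 acute-phase genes were past 2-fold higher, Mt1, Mt2 and Steap4. Another 3 were lower, Saa1 (0.292), Saa2 (0.270) and Orm2 (0.335), beside 3.47% and 3.88% of all genes.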
